A study of Mus musculus with 2 samples.

Results

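The cytosolic ribosomal proteins are the proteins of the ribosomes that translate nuclear genes, and their mRNAs were followed here in newborn mouse intestine. Members were the protein-coding genes whose mouse symbol is Rpl or Rps and a digit, or Rplp0, Rplp1, Rplp2 or Rpsa, without the Rps6k kinases and without symbols holding -ps. The rule found 86 genes among 43346 Ensembl genes. It splits into 77 core genes (46 of the large and 31 of the small subunit), 8 paralogues of core genes, and Rps19bp1, whose symbol fits the rule although it encodes a protein that binds Rps19 and is no ribosomal protein. The tissue was intestine of 2 littermate pups of the B6NCrl mouse strain at age 0 days, called pup 1 and pup 2. Each pup gave 1 library of RNA longer than 200 nt with spike-in transcripts, both form 1 group, and there is no treated or control arm. The labels do not say which segment of the gut was taken.

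Each cytosolic ribosome carries a large subunit, where peptide bonds are made, and a small subunit, where the mRNA is read, and each holds most of its proteins in a single copy. Ribosomal protein mRNAs are known as a group that starts with a run of pyrimidines, through which mTOR signalling controls their translation. Mammalian genomes also hold many processed pseudogenes of these genes, which are DNA copies of the mRNA without introns. A read from such a stretch can fit the gene and its copy equally well, and the deposited expected counts divide such reads between them.

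The expected counts summed to 44568095 in pup 1 and 34797451 in pup 2, of which members held 880026 and 676736. The libraries differed from each other by more than counting noise, with a mean chi-square of 13.2 per gene over 17559 genes. All 6 intestinal epithelium markers exceeded 1 TPM in both pups, led by Fabp2 at 12825 and 11961 TPM. Summed levels of the 4 blood markers were 990.3 TPM in pup 1 and 1480 TPM in pup 2, and those of the 4 exocrine pancreas markers were 187 and 263 TPM. Spike-in features held 534 and 200 counts.

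Ribosomal protein mRNA was abundant and held a steady share of the tissue's transcripts. Levels are in TPM, the deposited unit that corrects for transcript length and for depth. Members summed to 43853 TPM in pup 1 and 44129 TPM in pup 2, which was 4.40% ± 0.0195 of all TPM (SD, n = 2). The median core gene lay at 462.5 TPM in pup 1 and 462.7 TPM in pup 2. Both pups had 73 of the 77 core genes at or above 100 TPM, a level reached by 5.72% of 21461 nuclear protein-coding genes. The 77 mitochondrial ribosomal protein genes, which build the separate ribosome of the mitochondrion, had a lower median of 68.2 and 66.8 TPM.

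Most ribosomal proteins of the cytosol are needed in equal numbers, yet the deposited mRNA levels were far from equal. In each pup 4 core genes lay below 100 TPM, 5 between 100 and 200, 34 between 200 and 500, 26 between 500 and 1000, and 8 above. The highest gene was 90.2 times the lowest in pup 1 and 82.7 times in pup 2. Between the 10th and 90th percentiles the spread was 5.59-fold and 5.28-fold, and 56 of 77 core genes lay within 2-fold of the median in each pup. The SD of log2(TPM + 0.1) over core genes was 1.05 ± 0.0148 (SD over pups, n = 2). The mitochondrial genes had a similar SD of 1.13 in pup 1 and 1.14 in pup 2. The levels were close in the littermates, with r = 0.998 between pups over the log2 levels of the 77 core genes.

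**Figure D1:**
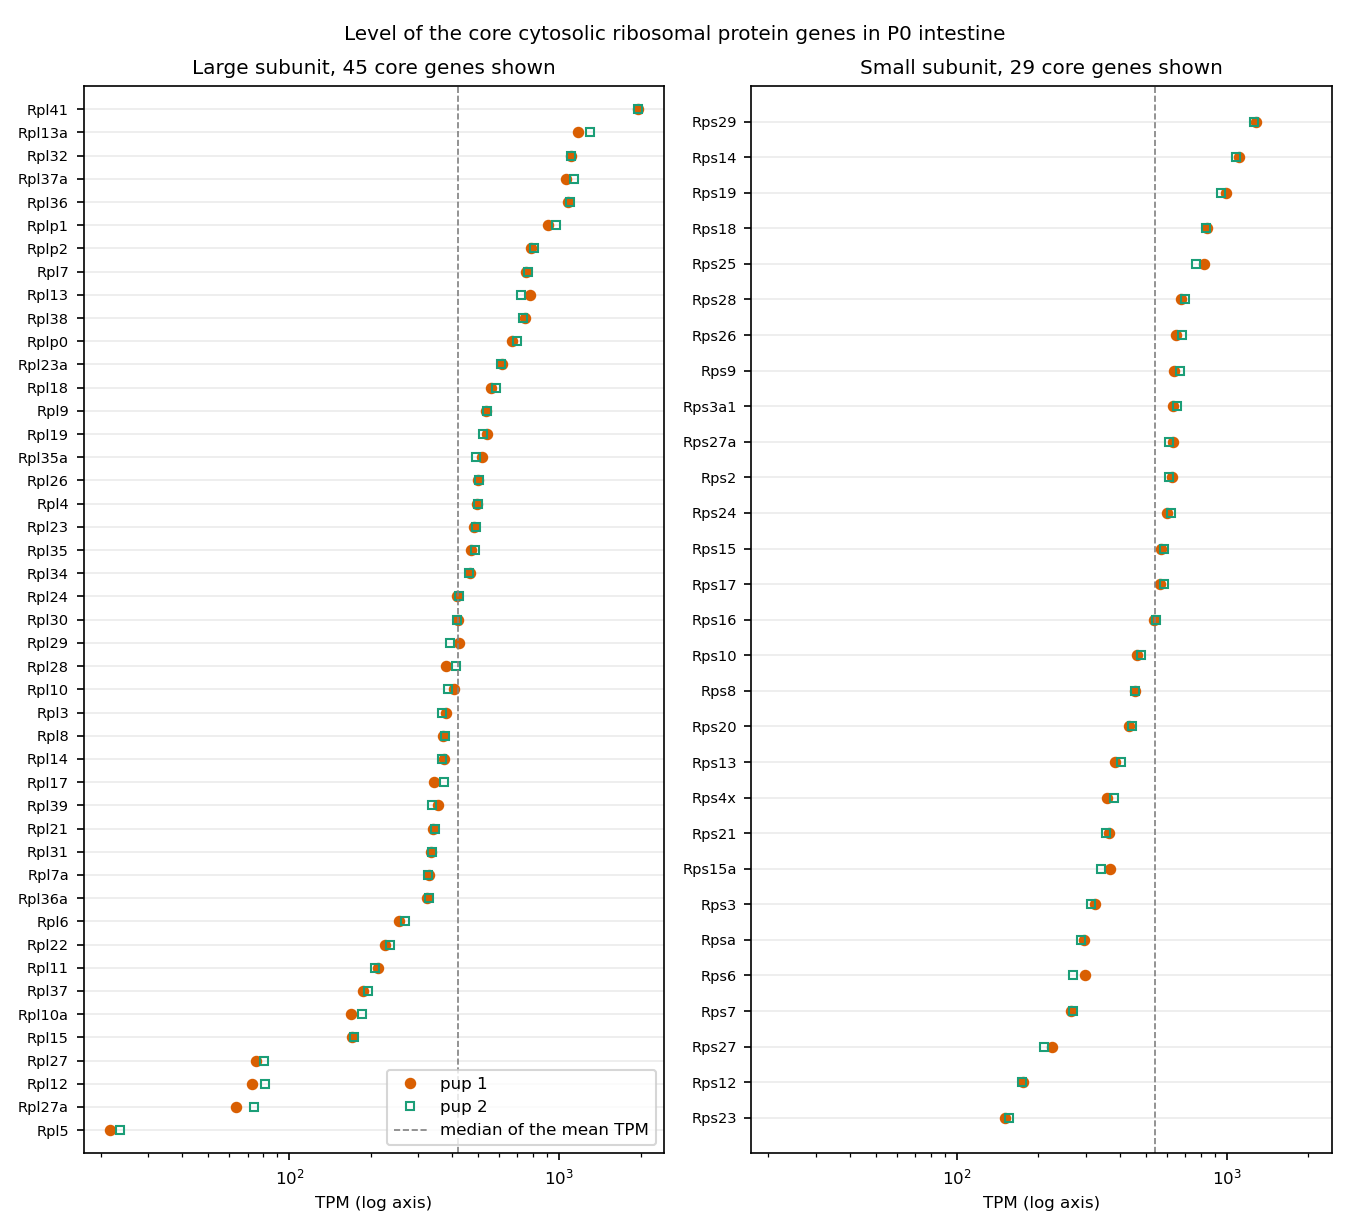
Level of the core genes reported here in TPM on a log axis, with a filled circle for pup 1 and an open square for pup 2, large subunit left and small subunit right. Dashed lines mark the median over all core genes of each subunit, and the points of the pups lie almost on each other from Rpl41 at 1954 and 1952 TPM down to Rpl5 at 21.7 and 23.6 TPM.

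In the large subunit the highest gene was Rpl41, whose protein of 25 residues is the shortest of the ribosome and lies where the subunits meet. Rpl41 (chr10:128548114-128549305, minus strand, GRCm38) had 1954 TPM in pup 1 and 1952 TPM in pup 2. Rpl13a followed with 1176 and 1295 TPM. Rpl32 had 1100 and 1103 TPM. Rpl37a, a zinc-binding protein, had 1060 and 1129 TPM, and Rpl36 had 1074 and 1100 TPM. Rpl41 and Rpl13a lay above the others in both pups, while the ranges of Rpl32, Rpl37a and Rpl36 overlapped.

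The lowest large-subunit gene was Rpl5, which with Rpl11 and the 5S rRNA forms a particle that is also known to bind Mdm2. Rpl5 (chr5:107900502-107909005, plus strand) had 21.7 TPM in pup 1 and 23.6 TPM in pup 2, and Rpl11 had 213 and 207 TPM. Next above Rpl5 came Rpl27a with 63.6 and 73.8 TPM, Rpl12 with 72.5 and 81.5 TPM and Rpl27 with 75.4 and 80.3 TPM. Rpl12, part of the base of the ribosomal stalk, overlapped with both Rpl27a and Rpl27 over the pups, and Rpl5 lay below all of them. Rpl15 had 170 and 174 TPM.

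Among the highest genes of the small subunit was Rps29, a short zinc-binding protein, with 1285 TPM in pup 1 and 1262 TPM in pup 2. Rps14, which lines the platform near the decoding site, had 1104 and 1082 TPM. Rps19, known in human for its mutations in Diamond-Blackfan anaemia, had 995 and 948 TPM, and Rps18 had 840 and 833 TPM. These 4 genes kept the same order in both pups with no overlap.

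The lowest small-subunit gene was Rps23, which reaches into the decoding centre, with 151 TPM in pup 1 and 156 TPM in pup 2. Rps12 had 175 and 173 TPM. Rps27 had 225 and 209 TPM and Rps7 had 263 and 269 TPM. Rps6, the substrate of S6 kinase and a classic readout of mTOR activity, had 299 and 268 TPM. Rps7 and Rps6 overlapped between the pups and the others did not. Another 57 core genes lay between 169 and 970 TPM in every pup.

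The large subunit lay lower than the small one per gene. Median TPM was 423 for large-subunit and 534 for small-subunit core genes in pup 1. In pup 2 it was 420.4 and 544 TPM. The difference of the medians of log2(TPM + 0.1), large minus small, was −0.35 ± 0.0232 (SD, n = 2). It depended on the length correction, since without it, in counts scaled for depth alone (CPM), the difference was −0.06 ± 0.0565. Adding paralogues to their parents gave −0.28, and adding matched copies gave −0.20. Large-subunit core genes had a median deposited length of 724 nt against 602 nt in the small subunit, and across the 77 core genes log2 length and log2 TPM correlated at r = −0.39. TPM contains length, so that correlation is a description only.

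The P-stalk, an arm of the large subunit that recruits the GTPases of translation, is the exception to single copies. Rplp0 anchors it, and Rplp1 and Rplp2 bind to it as dimers in more than 1 copy. Rplp1 had 905 TPM in pup 1 and 970 TPM in pup 2, and Rplp2 had 788 and 809 TPM. Rplp0 had 667 and 697 TPM. The order in both pups was Rplp1, Rplp2, Rplp0 without overlap, and the TPM ratios to Rplp0 were 1.37 ± 0.0246 for Rplp1 and 1.17 ± 0.0148 for Rplp2 (SD, n = 2). In counts per gene both lay below Rplp0, at 0.435 ± 0.00689 of it for Rplp1 and 0.331 ± 0.00696 for Rplp2, and Rplp1 stayed above Rplp2.

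Ribosomal constituents outside the rule by their symbols include Fau and Rack1. Fau, a fusion of a ubiquitin-like domain with a small-subunit protein, had 621 TPM in pup 1 and 630.5 TPM in pup 2. Rack1, a scaffold on the small subunit, had 352 and 362 TPM. A member that is also a fusion gene, Rps27a, joins ubiquitin to a small-subunit protein and had 629.98 and 608 TPM. All 3 lay between the 10th and 90th percentiles of the core genes.

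Of the 8 paralogues, 3 were near or at 0, 1 was low and 4 were above their parents. Rpl3l, known from adult heart and skeletal muscle, had 1 count in pup 1 and 6 counts in pup 2, which was 0.06 and 0.21 TPM. Its parent Rpl3, which lies near the peptidyl transferase centre, had 379.9 and 369 TPM. Rpl3l thus reached 0.0146% of the Rpl3 level in pup 1 (exact 95% interval 0.000371% to 0.0816%) and 0.0582% in pup 2 (0.0214% to 0.127%). These intervals cover counting error only. Of 10 striated muscle markers, 6 reached 1 TPM in each of the pups, and the sum of the list was 42.6 TPM in pup 1 and 38.1 TPM in pup 2, led by Ckm at 16.1 and 16.4 TPM. Actc1 had 8.16 and 6.37 TPM, Myl1, a myosin light chain, 6.92 and 8.29 TPM, and Acta1 6.15 and 2.23 TPM. Myh3, Myh8 and Myh6, the myosin heavy chains of the list, stayed at or under 0.12 TPM. The part of muscle in the Rpl3l counts was not tested.

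Rpl39l, known from male germ cells, had 1 count in each pup, which was 0.04 TPM in pup 1 and 0.08 TPM in pup 2. Rpl39, a short protein lining the exit tunnel for the growing peptide, had 356 and 337 TPM. Rpl39l was 0.0111% of Rpl39 in pup 1 (exact 95% interval 0.00028% to 0.0616%) and 0.0239% in pup 2 (0.000605% to 0.133%). Of 5 germ cell markers only Sycp3 exceeded 1 TPM, with 40.9 and 25.8 TPM, while Ddx4 had 0.2 and 0.12 TPM, Prm1 had 1 count in each pup and Acrv1 had none. The coding sequences of this pair, from GENCODE M21 transcripts on GRCm38, are shown because their 23 differing bases, in capitals, separate the genes. Rpl39l lies at chr16:10170226-10174911 (plus strand) and Rpl39 at chrX:37082520-37085402 (minus strand), each with 3 exons, and 85.3% of the 156 positions are identical.
Rpl39l: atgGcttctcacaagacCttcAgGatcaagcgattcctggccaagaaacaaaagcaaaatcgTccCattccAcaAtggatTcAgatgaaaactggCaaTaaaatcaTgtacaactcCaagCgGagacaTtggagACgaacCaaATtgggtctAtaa
Rpl39: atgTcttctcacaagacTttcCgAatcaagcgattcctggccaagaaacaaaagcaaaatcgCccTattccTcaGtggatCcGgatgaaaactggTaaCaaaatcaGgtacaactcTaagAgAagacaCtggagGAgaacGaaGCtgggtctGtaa

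The longest run of identical bases in this pair is 38, and no stretch of 100 bases of the Rpl39l transcript occurs in a transcript of another gene. Of the Rpl39 transcript 1.75% of such stretches do. The level of Rpl39l is therefore set apart from that of Rpl39 in these tables, at the depth of these libraries. The length of 100 bases is the shortest that the tables treat as readable, because their effective length is the length minus 99 for nearly all features.

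Rpl10l, a testis gene on chromosome 12 without introns whose parent Rpl10 is X-linked, had 0 counts in both pups. A count of 0 can hide up to 3 counts, which would be 0.0903 TPM in pup 1 and 0.118 TPM in pup 2. Rpl10, among the last proteins to join the large subunit, had 409 and 386 TPM, so Rpl10l was at least 4530-fold lower in pup 1 and at least 3275-fold lower in pup 2. No stretch of 100 bases of Rpl10l was shared with another gene. Rpl7l1 was low, with 43.8 TPM in pup 1 and 43.4 TPM in pup 2 against 755 and 764 TPM of Rpl7. That is 5.80% of its parent in pup 1 and 5.68% in pup 2.

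**Figure D2:**
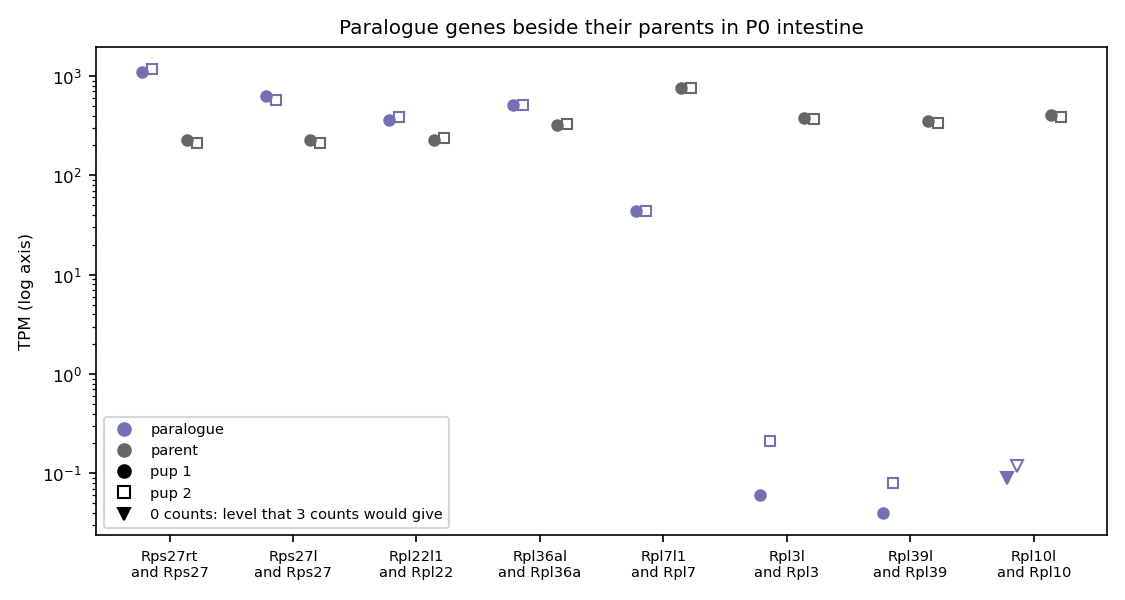
TPM on a log axis of the 8 paralogues, in purple, each left of its parent, in grey, with filled symbols for pup 1 and open ones for pup 2. Triangles give the level that 3 counts would have for Rpl10l, which had none. Rpl3l, Rpl39l and Rpl10l lie below 1 TPM, and 4 paralogues lie above their parents.

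The other 4 comparisons had the paralogue above its parent. Rpl22l1 had 359 TPM in pup 1 and 386 TPM in pup 2, against 225 and 237 TPM of Rpl22, an RNA-binding protein known in mouse for its role in T-cell development. The TPM ratio was 1.61 ± 0.0277 (SD, n = 2), larger than the spread between pups. It rested on a transcript without an annotated reading frame. Rpl22l1-209, typed as processed transcript, took 35.7% and 43.6% of the gene's TPM. Over protein-coding transcripts alone Rpl22l1 had 210.2 and 194 TPM against 221 and 234 TPM of Rpl22, and the order turned round.

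Rpl36al had 509 TPM in pup 1 and 513 TPM in pup 2, against 323 and 329 TPM of Rpl36a, with a ratio of 1.57 ± 0.00977 (SD, n = 2). Rpl36al (chr12:69182731-69184083, minus strand, 2 exons) and Rpl36a (chrX:134585654-134588062, plus strand, 5 exons) have coding sequences of the same length, 321 nt. Their coding sequences are 87.9% identical, with 39 differing bases. The first 150 bases are shown and hold 23 of these, in capitals. Of the 100-base stretches, 28.6% of those of Rpl36al occur in Rpl36a-ps3 and 47.4% of those of Rpl36a in Rpl36a-ps1. No run of identical bases in the coding sequence exceeds 24.
Rpl36al: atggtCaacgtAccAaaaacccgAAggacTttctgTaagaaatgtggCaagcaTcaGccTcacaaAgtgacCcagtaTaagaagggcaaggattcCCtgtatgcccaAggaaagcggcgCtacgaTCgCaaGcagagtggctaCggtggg
Rpl36a: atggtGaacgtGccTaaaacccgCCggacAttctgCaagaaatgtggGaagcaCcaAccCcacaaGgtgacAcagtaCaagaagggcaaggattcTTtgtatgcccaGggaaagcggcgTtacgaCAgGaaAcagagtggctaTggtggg

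The Rps27 group behaved in 2 ways. Rps27l, a p53 target, had 624 TPM in pup 1 and 571 TPM in pup 2, and shared no stretch of 100 bases with any other gene. Rps27rt, a gene of 1 exon, had 1094 and 1170 TPM, and Rps27 had 225 and 209 TPM. The coding sequences of Rps27rt and Rps27 are identical at all 255 positions, so a read from within them cannot tell the genes apart. The tables give Rps27 a length of 255 nt, the length of its coding sequence, while Rps27rt has 370 nt. Of the GENCODE M21 model of Rps27, 98.4% of stretches of 100 bases occur in a transcript of another gene. Rps27 also had the least certain count of all core genes, with a deposited posterior SD of 10.1% and 12.5% of the count against a core median of 0.298% and 0.331%. The ratio of Rps27rt to Rps27, 5.22 ± 0.526 (SD, n = 2), therefore rests on how shared reads were divided. Their summed count, 11921 in pup 1 and 9639 in pup 2, does not. The ratio of Rps27l to Rps27, 2.75 ± 0.0276, carries the same limit through its parent. Rps27l (chr9:66946086-66949516, plus strand, 4 exons) and Rps27 (chr3:90212522-90213651, minus strand, 4 exons) are shown with their 61 differing bases in capitals. Rps27rt (chr9:114982366-114982739, minus strand) has the bases of Rps27 throughout.
Rps27l: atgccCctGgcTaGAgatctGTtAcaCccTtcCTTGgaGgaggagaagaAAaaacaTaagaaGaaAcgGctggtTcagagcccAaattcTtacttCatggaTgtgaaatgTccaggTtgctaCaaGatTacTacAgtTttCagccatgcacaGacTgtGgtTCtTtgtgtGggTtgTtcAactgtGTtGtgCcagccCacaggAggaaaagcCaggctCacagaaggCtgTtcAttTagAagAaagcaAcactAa
Rps27: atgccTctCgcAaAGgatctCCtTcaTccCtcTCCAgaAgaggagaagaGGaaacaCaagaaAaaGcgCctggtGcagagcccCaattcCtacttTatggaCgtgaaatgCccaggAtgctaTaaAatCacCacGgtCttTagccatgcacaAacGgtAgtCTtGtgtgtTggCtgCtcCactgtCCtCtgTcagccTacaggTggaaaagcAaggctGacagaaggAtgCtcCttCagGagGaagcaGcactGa

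Most core genes shared sequence with other genes. Stretches of 100 bases were taken from the most abundant transcript of each member that GENCODE M21 holds. Its M21 length equals the deposited length for 58 of the 86 members. Over the 77 core genes a median of 41.4% of stretches also occurred in another gene's transcripts, on either strand. Of the 86 members, 32 reached 50% or more. On the same strand alone, counted after seeing the data, the median was 40.4% and 29 members reached 50%. The highest shares on the same strand were 98.4% for Rps27, 91.6% for Rpl10 and 88.0% for Rps27rt. Rpl5 had 91.1% on either strand and 47.2% on the same strand, and Rpl35 65.4% and 43.2%. Rps25 had 638 of 1181 stretches on either strand and 165 on the same strand. Each of these genes has a gene that overlaps it on the opposite strand among those matched. The M21 model of Rps25 has 1280 nt but the counted transcript 683 nt, so not all of its 1181 stretches can lie in the counted transcript. In all, 13 members shared none, among them Rps9, Rps20, Rps3, Rpl32 and Rpl23. Division of reads was visible in the values, since 84.9% of members in pup 1 and 86.0% in pup 2 had expected counts that were not whole (tolerance 0.005). Among nuclear protein-coding genes of 10 counts or more this was 24.1% and 23.6%, and among mitochondrial ribosomal protein genes 36.4% and 33.8%. The share of members is over all 86 without a filter on counts. These sets were not matched on counts, and a gene with more counts has more reads that could be shared. Rps9, Rps20 and Rps3 had whole counts in both pups.

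In the deposited levels the median was lowest in the group of core genes that shared most. The 31 core genes with 50% or more of their stretches shared had a median of 383 TPM in pup 1 and 386 TPM in pup 2. The 32 with 10% to 50% had 549 and 565 TPM, and the 14 with less had 467 and 469.5 TPM. With the counts of matched copies added, described below, this order did not hold. The first group then had 503 and 502 TPM and the second 594 and 614 TPM. The last stayed at 467 and 469.5 TPM and was lowest. With the same strand alone the first group held 28 genes at 381 and 379.8 TPM and the second 35 genes at 534 and 544 TPM. The groups overlapped widely, since members of the first reached a mean of 1087 TPM and the last went down to 231 TPM.

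Annotated copies of members took many counts. The 257 genes named as Rpl or Rps pseudogenes held 63581 counts in pup 1 and 48828 in pup 2, which was 6.73% ± 0.00592 of the sum of members and these genes (SD, n = 2). Matching by sequence found more. Annotated pseudogenes with at least 20% of their 31-base stretches in a member numbered 522 and held 139060 and 108466 counts, 13.7% ± 0.119 of the sum, of which 352 carry only a predicted-gene name beginning with Gm. Another 9 genes typed as protein-coding or lincRNA with at least 50% of their stretches in a member held 10614 and 7576 counts. The counts were concentrated, with 83.7% of the pseudogene counts in pup 1 and 83.8% in pup 2 on 20 pseudogenes and 108 pseudogenes at 0 in both pups. Copies match their parents to differing degrees, and whether the counts on a copy came from its parent was not tested.

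The pseudogene with the most counts was Gm15500 on chromosome 7, which holds all 894 bases of the Rpl5 coding sequence unchanged. Rpl5 itself had 1011 counts in pup 1 and 834 in pup 2, against 13323 and 10051 on Gm15500. Gm12918 on chromosome 4 holds the whole 636-base coding sequence of Rpl13, with 10646 and 8920 counts against 19065 and 13572 on Rpl13. Rps23-ps1 on chromosome 3 took 9462 and 7299 counts. Rpl15-ps3 on chromosome 9, with the 615 coding bases of Rpl15, took 8258 and 5635 counts.

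The core genes with the lowest levels were those with most of their pooled counts on copies. In 7 members the matched copies held more counts than the member in both pups, and these were the 7 core genes with the lowest mean TPM. A low count of the member lowers its TPM and raises the share on copies, so level and share are not independent. That share was 92.6% ± 0.429 for Rpl5, 84.6% for Rpl27, 72.7% for Rps23 and 72.2% for Rpl27a (means of 2 pups). For Rps12 it was 64.6%, for Rpl12 63.8% and for Rpl15 58.3%. Together these 7 genes held 18252 counts in pup 1 and 14530 in pup 2, against 53874 and 40431 on their copies. Just beyond them stood Rpl28 at 50.5% and Rpl10a at 47.9%. Copies held over 10% of the pooled counts of 24 members in both pups and under 1% for 30 members.

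**Figure D3:**
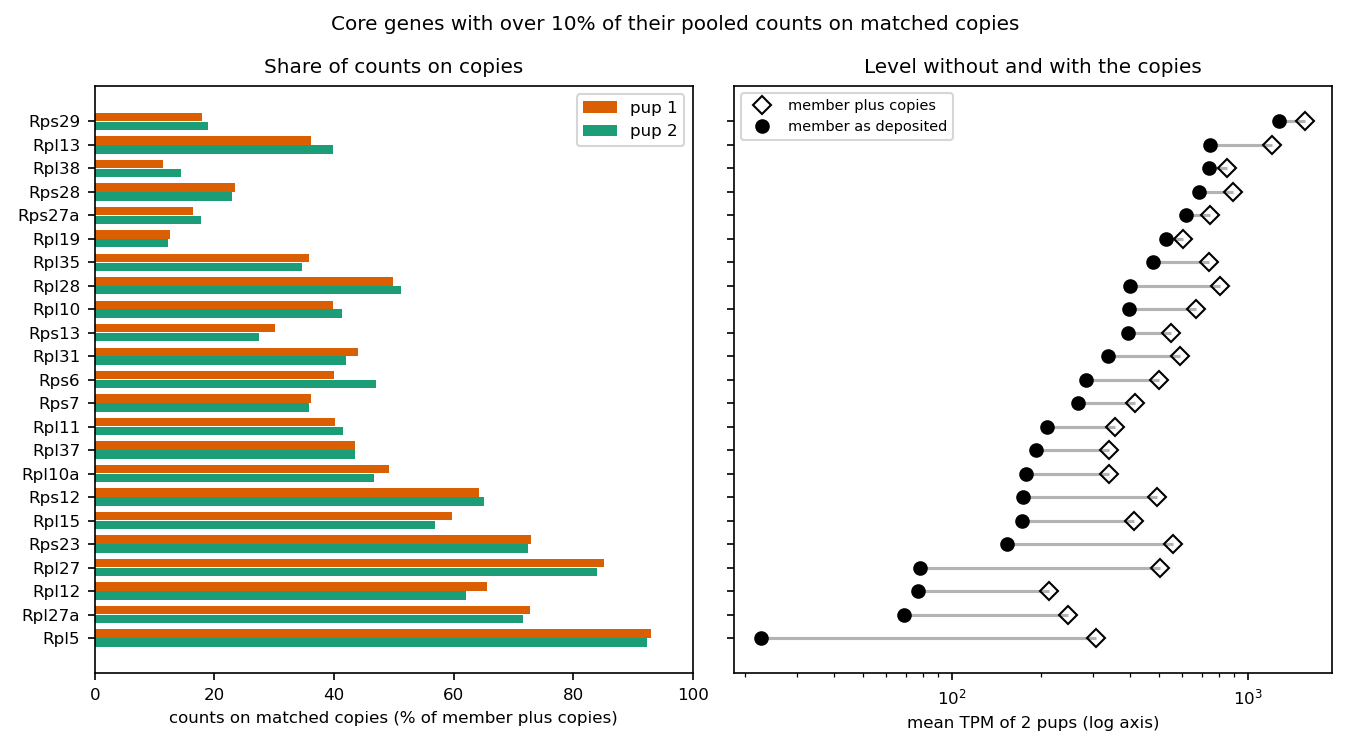
Core genes reported here with over 10% of their pooled counts on matched copies in both pups, ordered by level. Bars on the left give the share of counts on copies per pup, up to 93.0% in pup 1 and 92.3% in pup 2 for Rpl5, and points on the right give mean TPM of the member as deposited (filled) and with all counts of its copies added (open), on a log axis.

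Adding the counts of all matched copies to their parents gives the level each gene would have if those counts were its own. Rps27 has no matched copy, since Rps27rt is a member, and its value is unchanged by this sum. With them Rpl5 reached 308 TPM against 22.6 TPM without, Rpl27 504 against 77.8, Rps23 560.1 against 153 and Rpl27a 247 against 68.7 (means of 2 pups). The highest core gene was then 9.91 times the lowest in pup 1 and 9.95 times in pup 2 (9.69 times without Rps27, the lowest gene there), where it had been 90.2 and 82.7 times without copies. The SD of log2(TPM + 0.1) over core genes became 0.691 ± 0.0021, and 63 core genes in pup 1 and 65 in pup 2 lay within 2-fold of their median. Genes with no shared stretch keep a spread of their own, from Rpl32 at 1100 and 1103 TPM to Rpl22 at 225 and 237 TPM.

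The posterior mean counts deposited beside the expected counts divide shared reads in a second way. The 5 members whose expected counts lay furthest from them were Rpl10, Rpl13, Rpl15, Rps27 and Rps27rt. Rpl10 had a posterior mean above its expected count by 43.1 in pup 1 and below it by 15.3 in pup 2, at 10372 and 7485 expected counts. Rps27 and Rps27rt moved by the same amount in opposite directions, 20.1 counts in pup 1 and 15.0 in pup 2. Rpl13 had a posterior mean lower by 38.4 and 6.99 counts, and that of Rpl15 was higher by 19.8 and 20.4 counts. With the posterior means the median core level was 454 ± 0.636 TPM.

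Protein-coding transcripts held most of the members' TPM. They took 90.5% in pup 1 and 89.8% in pup 2, processed transcripts 4.10% and 4.34%, transcripts with a retained intron 2.53% and 2.63%, and nonsense-mediated decay transcripts 0.279% and 0.336%. Transcripts of the tables that GENCODE M21 does not hold, and so have no type here, took 2.60% and 2.90%. In Rpl13a such transcripts made up 93.5% of the gene's TPM in pup 1 and 94.5% in pup 2. The core genes with the lowest share of a single transcript were Rpl7, Rps19, Rpl5, Rps14 and Rpl27. In Rpl7 the main transcript had 45.0% and 43.8% of the gene's TPM and a processed transcript of 421 nt had 37.3% and 40.3%. In Rps19 the main one had 45.9% and 44.0%, and a transcript with a retained intron had 23.6% and 22.1%. In Rpl5 a transcript with a retained intron took 37.8% and 39.6%. Rps14 and Rpl27 divided their TPM between 2 protein-coding transcripts each. Another gene overlaps 21 members on the opposite strand, and the sources used here do not say whether strand was used in counting.

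With TMM library sizes the littermates differed little in ribosomal protein mRNA, while with spike-in sizes all 83 members were over 1.5-fold higher in pup 2. Ratios are pup 1 over pup 2 after TMM scaling of library size, for 83 members and 19053 genes in all with a summed count of 10 or more. No member had an exact 95% interval wholly beyond 1.5-fold. Over all genes 0.709% were called higher in pup 1 and 0.745% higher in pup 2 by the same rule. No call among 83 members is near those shares. The log2 ratios of the core genes ran from −0.11 to 0.22 with an SD of 0.0645 over genes. With 2 pups an exact sign-flip test cannot go below p = 0.5, so no test of a difference between animals was made.

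At a fold of 1, 41 of the 83 members had an interval wholly above 1 and 6 wholly below. Over all genes these shares were 15.5% and 14.2%, but genes with many counts have short intervals. Among 1151 other nuclear protein-coding genes at 100 TPM or more, 53.6% lay above 1 and 16.4% below. The members' share above 1 was near that of these genes, and their share below 1 was smaller. The median log2 ratio of the core genes was 0.05, against 0.06 over nuclear protein-coding genes at 100 TPM or more and −0.00164 over all genes. It was 0.02 with library totals in place of TMM. Scaling by spike-ins turned the direction, to −1.04, with all 83 members over 1.5-fold higher in pup 2, as were 73.9% of all 19053 genes. Blood markers were lower in pup 1 than in pup 2 and their part in these ratios was not tested.

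The largest ratio toward pup 1 was that of Rps6, with 1.16 (exact 95% interval 1.12 to 1.20). Rps27l had 1.14 (1.10 to 1.18) and Rpl29 had 1.12 (1.09 to 1.16). For Rps6 the share of pooled counts on copies also differed, at 40% in pup 1 and 47% in pup 2, and with copies added its level was 498 TPM in pup 1 and 505 TPM in pup 2. The largest toward pup 2 were those of Rpl12 at 0.927 (0.869 to 0.990), Rpl10a at 0.934 (0.894 to 0.975) and Rpl27a at 0.948 (0.890 to 1.01). The intervals cover counting error only, without biological spread.

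**Figure D4:**
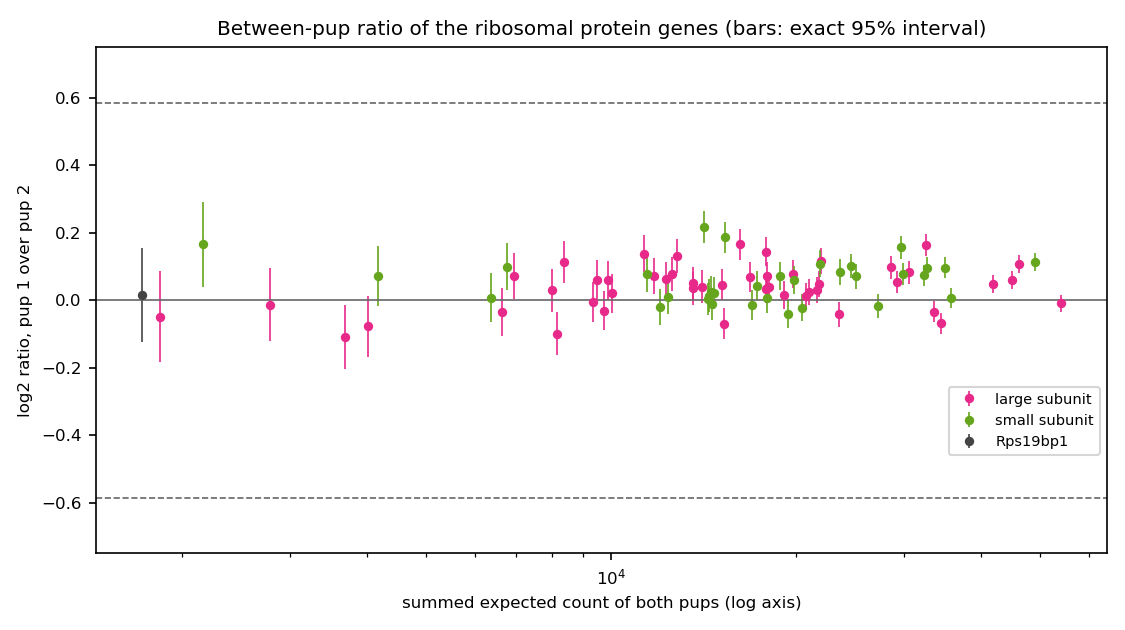
The log2 ratio of pup 1 over pup 2 for the 83 members with a summed count of 10 or more, against that count on a log axis, coloured by subunit, with exact 95% intervals as bars. Dashed lines mark 1.5-fold, and every one of them lies between −0.11 and 0.22.

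Genes that make, load and use ribosomes were listed beside the members. With TMM sizes none of them was called over 1.5-fold apart between the pups. Over all genes 0.709% were called higher in pup 1 and 0.745% higher in pup 2, so the lists did not stand apart. All 16 translation factors exceeded 1 TPM, with a median of 205 TPM in pup 1 and 218 TPM in pup 2. Eef1a1, which delivers tRNAs, had 1640 and 1724 TPM, Tpt1 had 983 and 1050 TPM, Btf3 had 378 and 397 TPM and Naca had 258 and 281 TPM. All 31 ribosome biogenesis genes exceeded 1 TPM at a far lower median of 24.5 and 23.2 TPM. The highest were Eif6, which keeps the large subunit from joining early, with 262 and 259 TPM, Npm1 with 239 and 243 TPM, Ncl with 136 and 148 TPM and Nop10 with 96.3 and 91.2 TPM. The 6 dedicated chaperones of ribosomal proteins had a median of 16.6 and 17.0 TPM, led by Bccip with 74.4 and 73.4 TPM. Of the 11 regulators of pyrimidine-tract mRNAs, Rheb was highest with 119 and 115 TPM. Rps19bp1 had 36.7 and 37.8 TPM, near the biogenesis genes and below every core gene apart from Rpl5.

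Letters around the annotated start were read for the 65 ribosomal members with an entry in the RefSeq promoter table (GRCm38.p6), of 27025 genes in all. A C at the start followed by 4 pyrimidines was found in 13 of 65 (20.0%), and in 2.49% of all promoters. The letters CTTTCC within 10 bases of the start on the same strand were found in 10 (15.4%), and in 1.07% of all. CCGGAAG anywhere in the 300 bases, on either strand, was found in 25 (38.5%), and in 9.12% of all. TATAAA from 40 to 20 bases before the start was found in 1 (1.54%), and in 2.22% of all. These letters overlap in part, a match is no proof of a site, and an annotated start can lie some bases from the one in use. The 6 matching members with the highest TPM are shown by 30 bases each, 5′ to 3′, with the pyrimidine run from the start in capitals.
Rps27rt: gaacttatcccttgCTTTCCggcggtgacg
Rps18: acgtcacttccgctCTCTCTTCCacaggag
Rplp2: gcgtcagcgtcttcCTTTCgccgccggacg
Rpl38: gcggaagcctcgttCTTTCCCCgttctctt
Rpl35: ggccccgccctttcCTCTTTCTCTCgaacc
Rps10: cgccgcgcacgcccCTTCCTTTCCagcctc

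These windows lie at chr9:114982724-114982753 on the minus strand for Rps27rt, chr17:33955650-33955679 on the minus strand for Rps18 and chr7:141447637-141447666 on the plus strand for Rplp2. Those of Rpl38, Rpl35 and Rps10 lie at chr11:114668566-114668595 on the plus strand, chr2:39005116-39005145 on the minus strand and chr17:27635229-27635258 on the minus strand. Their genes ranged from 462 TPM for Rps10 in pup 1 to 1170 TPM for Rps27rt in pup 2, with Rpl38 at 745 and 732 TPM and Rpl35 at 469.6 and 486 TPM.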

How the data were processed

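Total RNA longer than 200 nt from intestine of 2 littermate pups was sequenced, 1 library per pup, so every SD is over 2 animals. Per the file headers, the authors deposited expected counts, TPM, posterior mean counts and the posterior SD of each count (a score) per gene and transcript, and the share of each transcript in its gene's TPM as a percent. A text file deposited with the tables names mm10 and GENCODE M4. The sources used here name no aligner or counter and do not say whether strand was used. The authors also deposited FPKM, and interval bounds of TPM and FPKM (listed as signal, level not stated), per the file headers; neither was used for a result. Symbols, transcript types and coding sequences came from GENCODE M21 (GRCm38), which matched 42462 of 43346 genes, so some gene models differ from those counted: the main transcript has the same length in both for 58 members. Promoters came from RefSeq (GRCm38.p6).

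Members and lists were chosen with earlier results of these data known. Levels are means ± SD, and log2 values use a pseudocount of 0.1 TPM. Ratios between pups used expected counts as they stand, TMM library sizes (edgeR 4.0.16, R 4.3.3) over genes with 10 or more counts in both pups, and exact 95% Clopper-Pearson intervals on rounded counts (SciPy 1.17.1), for genes with a summed count of 10 or more. Intervals and the floor of 3 counts cover counting error only. The interval code was tested on simulated data. Sequence sharing was counted as 100-base stretches of 1 transcript per member, found in transcripts of other genes on either strand. That transcript was the most abundant that GENCODE M21 holds, with its M21 sequence. For Rpl13a it held only 5.58% of the gene's TPM in pup 1 and 4.66% in pup 2. Copies were counted as genes sharing 31-base stretches with a member. Genes overlapping their parent were not taken as copies. Pairs of coding sequences were aligned with Biopython 1.88. Alternatives were posterior means, CPM, protein-coding transcripts, copies or paralogues added, other pseudocounts and folds, other library sizes (DESeq2 1.42.0, totals, spike-ins), and each pup alone. Named were paralogues and parents, the P-stalk, the 5 highest and lowest core genes per subunit, the 5 furthest from their posterior mean, the 3 largest ratios each way, the 5 highest pseudogenes, the 5 genes with the lowest share of a main transcript, and the 4 highest genes of other lists with those under 1 TPM. Some genes that this rule takes are not reported here. Other members named were chosen after their values were seen.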

Additional observations from a re-analysis of the deposited data

How the results depend on the processing

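Posterior mean estimates gave a core median of 454 TPM, a share of TPM of 4.32%, named pseudogenes at 6.71%, and a log2 ratio of −10.31 for Rpl39l over Rpl39 (−11.09 as reported). CPM gave a core median of 221, an SD of log2 levels of 0.999, a large minus small difference of −0.0644 and −10.14 for Rpl39l. Protein-coding transcripts alone gave 390.3 TPM, 1.39 and −0.26 for the same 3 quantities of the core genes. Transcripts absent from GENCODE M21 were left out, among them most of the TPM of Rpl13a. So were the main transcripts of Rps20 (retained intron, 92.3% and 92.9% of the gene's TPM) and Rpl35 (processed transcript, 90.5% and 87.2%). Those of Rpl23 (processed transcript, 76.9% and 76.3%) and Rpl12 (nonsense-mediated decay, 72.2% and 71.5%) were also left out. Rpl22l1 over Rpl22 was −0.17 in this setting and 0.69 with all transcripts. Adding copies gave 528 TPM, 0.691 and −0.20, and adding paralogues gave an SD of 1.07 and a difference of −0.28. Means in place of medians gave −0.32. Members held 5.61% of nuclear protein-coding TPM and 1.96% of expected counts. A pseudocount of 1 TPM gave −8.37 for Rpl3l over Rpl3 and −8.36 for Rpl39l over Rpl39. Pseudogenes matched by sequence held 13.7%, and, in alternatives chosen after seeing the data, 13.3% with 50% of stretches matched and 14.6% with all copies. Spike-in sizes gave 83 members over 1.5-fold higher in pup 2, with 73.9% of all genes, and a median log2 ratio of −1.04, on 534 spike-in counts in pup 1 and 200 in pup 2. The causes were not tested. DESeq2 sizes, library totals and TMM without a filter left 0 members over 1.5-fold, and with TMM sizes none was over 2-fold.

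Each pup alone kept the direction of every level, and a ratio between pups has no value without either pup. No paired analysis was possible because both pups form 1 group. Counts of 0 to 6 limit Rpl3l, Rpl39l and Rpl10l, and 2 littermates limit every SD.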

Other observations

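Many members host or border other transcription units. Another annotated gene overlaps 48 of the 86 members, and 30 members hold 59 snoRNA genes, which encode guides of rRNA modification or processing. On the opposite strand a gene overlaps 21 members, among them Rpl5 (Fam69a), Rps25 (Trappc4 and Ccdc84) and Rpl18 (Sphk2). The genes overlapping Rpl5 held 773 expected counts in pup 1 and 549 in pup 2, beside 1011 and 834 on Rpl5 itself, and those overlapping Rpl18 held 4366 and 3443. How much of these counts belongs to the members was not tested. These members were named after their values were seen.

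Annotated copies were unevenly spread over parents. Rpl21 had 48 matched copies, Rps2 had 35, Rpl29 had 34, Rpl7a had 29 and Rps12 had 21. Rpl5, whose copies held 92.6% of its pooled counts, is not among these 5 genes.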
